A study of Arabidopsis thaliana with 9 samples.

Results

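The transcripts of 37 genes of chlorophyll and tetrapyrrole metabolism were followed, out of 28642 genes in the deposited table. They were taken by gene identifier from a list covering synthesis from glutamyl-tRNA to chlorophyll and heme, 3 regulators, and 4 enzymes of chlorophyll breakdown. RNA-seq was done on shoots of *vtc3-3*, *vtc2-4*, and wild-type (Col-0) Arabidopsis seedlings, with 3 libraries of each genotype. *vtc3-3* carries a T-DNA in the seventh exon of *VTC3*, which encodes a putative protein kinase and phosphatase, and *vtc2-4* carries a T-DNA in the third exon of *VTC2*, which encodes GDP-L-galactose phosphorylase of ascorbate synthesis. Each mutant is a single insertion line. All seedlings were 2 weeks old, were raised on agar with 1% sucrose, and were collected after 2 d of darkness followed by 6 h of light at 100 µmol photons per square metre and second, and plants were pooled for each library.

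Tetrapyrroles are ring-shaped pigments and cofactors that plants build in the chloroplast from glutamate through 5-aminolevulinic acid (ALA). The route divides at protoporphyrin IX, where insertion of magnesium leads to chlorophyll and insertion of iron leads to heme and the bilin pigment of phytochrome. Free intermediates are photoreactive, the making of ALA is held back in the dark, and the protochlorophyllide oxidoreductases (PORs) of flowering plants need light, so a shift from darkness to light is a classical condition for studying this pathway.

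The region before the start of 5 genes is shown first, because these 5 passed the test in both comparisons that involve *vtc2-4* once wild-type replicate 1, which stands apart, was left out. Each run is the 250 bases before the RefSeq gene start in TAIR10.1, written 5′ to 3′ on the strand of the gene. Capitals mark the motif CCAATC, a form of the element of nuclear factor Y, or the motif CACGTG, the G-box read by bZIP and bHLH factors including those of light signalling. Both were searched on both strands, and none of the 37 windows held both.

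*HEME1*, chr3:5020211-5020460, plus strand: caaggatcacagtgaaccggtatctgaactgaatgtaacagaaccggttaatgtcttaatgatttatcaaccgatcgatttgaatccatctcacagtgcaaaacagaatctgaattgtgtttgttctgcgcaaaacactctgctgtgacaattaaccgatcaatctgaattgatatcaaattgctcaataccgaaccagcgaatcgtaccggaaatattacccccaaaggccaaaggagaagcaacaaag

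*CHLM*, chr4:12876572-12876821, plus strand: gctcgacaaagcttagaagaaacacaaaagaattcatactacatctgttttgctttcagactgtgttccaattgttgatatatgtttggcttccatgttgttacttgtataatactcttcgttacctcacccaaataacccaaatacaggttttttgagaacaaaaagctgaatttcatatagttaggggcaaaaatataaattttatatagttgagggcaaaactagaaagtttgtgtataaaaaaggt

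*PORB*, chr4:13725296-13725545, plus strand: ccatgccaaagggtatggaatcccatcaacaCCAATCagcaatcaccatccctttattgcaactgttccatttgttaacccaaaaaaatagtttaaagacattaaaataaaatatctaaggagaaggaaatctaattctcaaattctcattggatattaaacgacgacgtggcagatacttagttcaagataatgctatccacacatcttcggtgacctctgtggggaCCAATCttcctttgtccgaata

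*CAO*, chr1:16851272-16851521, minus strand: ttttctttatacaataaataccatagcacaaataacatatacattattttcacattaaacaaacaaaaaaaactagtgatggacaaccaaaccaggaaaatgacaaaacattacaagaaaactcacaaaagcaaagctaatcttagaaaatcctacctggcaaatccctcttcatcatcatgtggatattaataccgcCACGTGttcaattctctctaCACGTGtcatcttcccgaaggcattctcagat

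*PAO*, chr3:16383345-16383594, plus strand: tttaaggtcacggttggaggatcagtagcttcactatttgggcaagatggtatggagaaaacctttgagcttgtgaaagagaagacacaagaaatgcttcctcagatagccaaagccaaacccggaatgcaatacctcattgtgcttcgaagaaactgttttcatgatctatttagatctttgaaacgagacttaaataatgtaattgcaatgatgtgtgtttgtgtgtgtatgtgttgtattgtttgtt

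CACGTG occurred in 6 of the 37 windows (16.2%), against 6.49% of 27443 windows of nuclear protein-coding genes. These 6 were *ERS*, *HEMD*, *CRD1*, *CAO*, *FC2*, and *HY2*. CCAATC occurred in 3 of 37 (8.11%), namely *GSA2*, *PORB*, and *GUN4*, against 10.2% of all windows. *CAO* held CACGTG at 52 and 32 bases before the start, *PORB* held CCAATC at 219 and 22 bases, and the windows of *HEME1*, *CHLM*, and *PAO* held neither motif. A match is a description of the letters and not of a bound site.

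The libraries held 4399733 to 7567492 reads in *vtc3-3*, 6765579 to 7249548 in *vtc2-4*, and 5070225 to 5853283 in the wild type. Values below are normalized counts, which are read counts scaled by library size with edgeR's TMM factors, unless RPKM (reads scaled to exon length and to library total) is named. *VTC2* (AT4G26850) had 4217, 4190.0, and 4121 in *vtc3-3*, 42.1, 43.2, and 32.2 in *vtc2-4*, and 3086, 4679, and 4691 in the wild type, and *VTC3* (AT2G40860) had 26.0, 23.5, and 16.6 in *vtc3-3*, 101, 110.2, and 106 in *vtc2-4*, and 81.4, 114, and 115 in the wild type, so both genes were low in the mutant named for them. The 5 shoot markers summed to 123949 to 133144 in *vtc3-3*, 124104 to 137093 in *vtc2-4*, and 60180 to 129266 in the wild type. The low wild-type sum was that of replicate 1, described below, in which each of the 5 was the lowest of all libraries. *RBCS1A*, for one, had 23889 in it, against 57176 and 59239 in wild-type replicates 2 and 3. Of 5 root markers, *CASP1*, *EXPA7*, *COBL9*, and *LRX1* had at most 2.35 in any library, and *EXPA7* and *COBL9* were at 0 in all 9. *PYK10* (AT3G09260) had 802, 775, and 948 in *vtc3-3*, 899, 836, and 696 in *vtc2-4*, and 689.5, 694, and 733 in the wild type. In bulk tissue, fewer cells of a type and less RNA per cell cannot be told apart.

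Replicate 1 of the wild type was unlike the remaining 8 libraries, and every comparison with the wild type depends on it. Its mean correlation with them across genes was 0.9025, against 0.968 to 0.972 for the others. Its deviations correlated with log2 exon length at r = −0.556 across genes, which are not independent replicates, against −0.027 to 0.155 elsewhere. Among the 37 genes it was the lowest of the 9 libraries for 23 and the highest for 10. Of all genes tested, 37.3% were lowest and 37.8% highest in it. Its level over the mean of wild-type replicates 2 and 3 ranged between 0.417 for *GSA1*, an aminotransferase of ALA synthesis, and 2.82 for *HY2*, the phytochromobilin synthase. The 37 genes took 0.761% of its gene reads and 0.945% to 1.03% of those of the other libraries. The tests of the 37 genes are therefore given with all 9 libraries and without this library. The median coefficient of variation of the 37 genes was 4.43% in *vtc3-3*, 3.88% in *vtc2-4*, and 21.7% in the wild type.

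**Figure D1:**
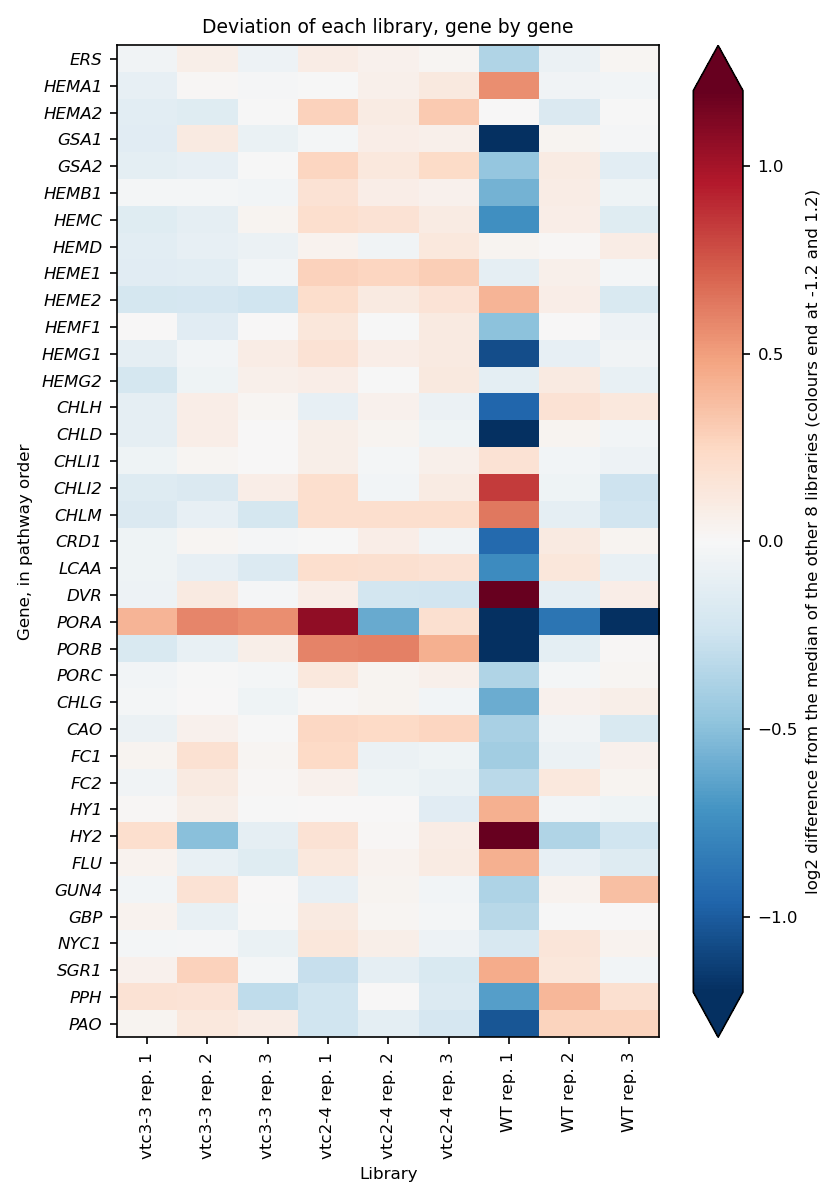
Each cell gives 1 gene (rows, in pathway order) in 1 library (columns), as the log2 normalized count (with 0.5 added) minus the median of the other 8 libraries, with colours ending at -1.2 and 1.2. Wild-type replicate 1 is the column with the strongest colours, lowest of the 9 for 23 genes and highest for 10.

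Transcript levels per exon length differed widely along the pathway. *CRD1*, the catalytic subunit of the cyclase that closes the fifth ring of chlorophyll, was highest in each genotype, with an RPKM of 1231 ± 15.2 in *vtc3-3*, 1242 ± 34.6 in *vtc2-4*, and 1078 ± 362 in the wild type (SD, n = 3 each). *PORA*, the POR known from dark-grown seedlings, was lowest, with 2.89 ± 0.16 in *vtc3-3*, 2.64 ± 1.32 in *vtc2-4*, and 0.955 ± 0.271 in the wild type. Next below *CRD1* in the wild type stood *CHLI1* (376 ± 38.4), *CHLH* (339 ± 120), *HEMA1* (296 ± 79.3), and *PORB* (286 ± 116), and neighbours in this order lay within their spread. Without replicate 1 the wild-type means were 408 for *CHLH*, 354 for *CHLI1*, 353 for *PORB*, and 249.9 for *HEMA1*, which is another order. In *vtc2-4*, *PORB* was second, with 519 ± 31.3, against 351 ± 22.9 in *vtc3-3*. Of the summed RPKM of the 37 genes, the 13 genes of the chlorophyll branch took 61.3% in *vtc3-3*, 61.8% in *vtc2-4*, and 59.1% in the wild type. The 4 genes of heme and bilin synthesis took 4.61% of it in *vtc3-3*, 4.17% in *vtc2-4*, and 5.01% in the wild type. Without replicate 1 the wild-type shares were 61.3% for the chlorophyll branch and 4.38% for heme and bilin synthesis, the one at the level of *vtc3-3* and the other between the mutants.

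**Figure D2:**
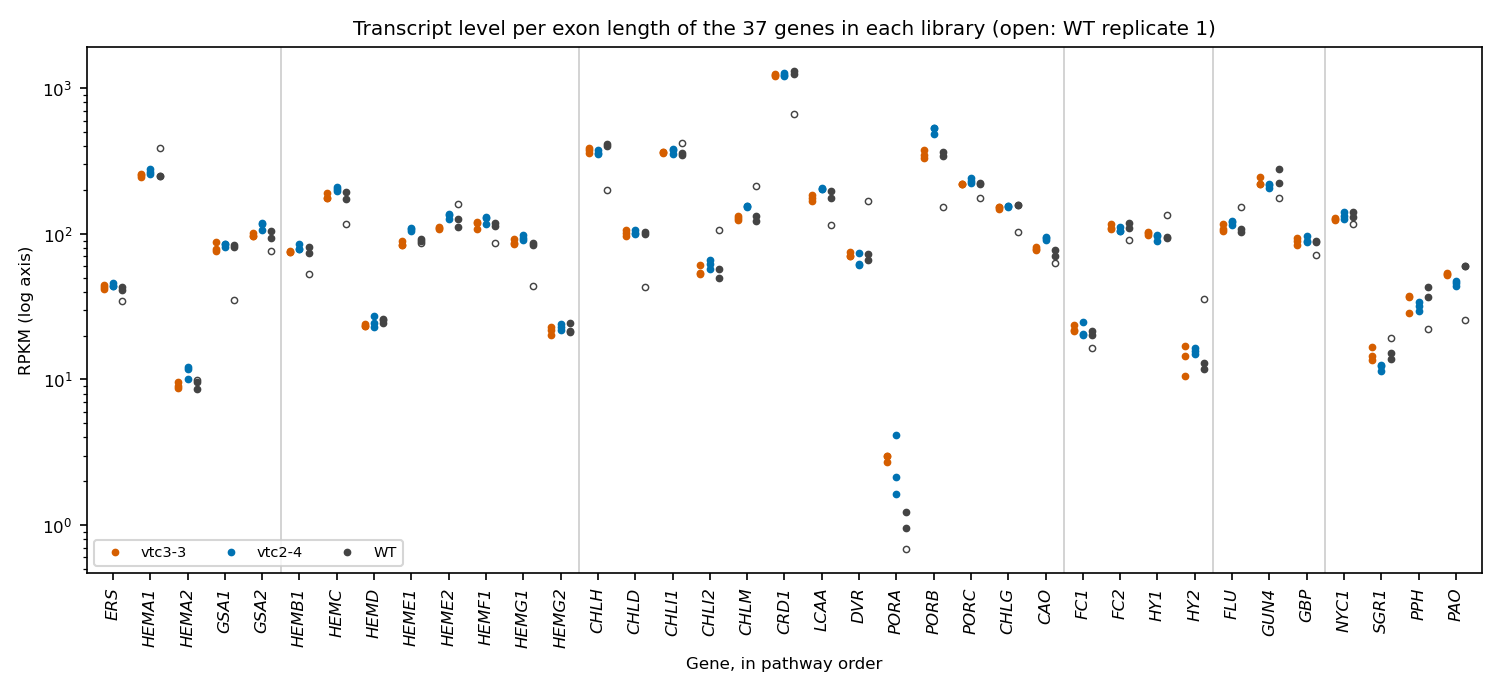
RPKM (vertical log axis) of each of the 37 genes (horizontal axis, in pathway order, grey lines between steps) in the 3 libraries of each genotype, with wild-type replicate 1 as an open circle. *CRD1* reaches 1317 RPKM at most and *PORA* 0.684 at least.

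With all 9 libraries, 0 of the 37 genes passed an adjusted p of 0.05 in any comparison by edgeR's quasi-likelihood test. Of all 17388 genes tested, 0.351% passed for *vtc3-3* against *vtc2-4*, 0.023% for *vtc3-3* against the wild type, and 0.598% for *vtc2-4* against the wild type. At an unadjusted p under 0.05 there were 2 of the 37 between the mutants (5.1% of all genes), 1 for *vtc3-3* against the wild type (6.23%), and 7 for *vtc2-4* against the wild type (9.9%). DESeq2 called *HEME1* for *vtc3-3* against *vtc2-4* (0.759% of all genes) and *CAO* for *vtc2-4* against the wild type (1.63%). The exact test of edgeR, run on the 6 libraries of 2 genotypes at a time, called 9 genes between the mutants (7.52% of all genes) and *PORA* for *vtc3-3* against the wild type (0.106%).

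The comparison of the mutants with each other needs no wild-type library, and here *vtc3-3* had lower levels than *vtc2-4* at several steps leading to chlorophyll. When only the 6 mutant libraries were fitted, 9 of the 37 genes passed the threshold (8 lower and 1 higher in *vtc3-3*), and 6.72% of all genes tested did, 3.58% lower and 3.15% higher. The same 9 passed when the fit held 8 libraries, without wild-type replicate 1, where 6.76% of all genes did, 3.6% lower and 3.15% higher. The values that follow are from that fit of 8 libraries unless stated. The median log2 fold change of the 37 genes was −0.08, and that of all genes was 0.00. The groups did not overlap for 12 of the 37 genes that were lower in *vtc3-3* and 2 of the 37 that were higher, against 12.2% and 11.3% of all genes. For each of the 9 called genes, the mean of wild-type replicates 2 and 3 was nearer to that of *vtc3-3* than to that of *vtc2-4*. For *PORB* the means were 3334 in *vtc3-3*, 4959 in *vtc2-4*, and 3361 in these wild-type libraries. In the same fit 0 of the 37 genes passed for *vtc3-3* against the wild type.

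The largest of these differences was that of *PORB*, the POR that reduces protochlorophyllide in the light throughout development (AT4G27440, chromosome 4, 13725546 to 13727353 in the deposited coordinates). *PORB* had 3112, 3316, and 3574 in *vtc3-3*, 5139, 5168, and 4571 in *vtc2-4*, and 1426, 3243, and 3479 in the wild type. Every *vtc3-3* library was below every *vtc2-4* library. The log2 fold change was −0.58 (SE 0.0598, adjusted p = 3.14e-06, edgeR's quasi-likelihood test), which is 0.671-fold, and the 6 mutant libraries alone gave an adjusted p of 4.31e-06 by the same test. With all 9 libraries the adjusted p of *PORB* was 1 in edgeR's quasi-likelihood test.

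The steps before protoporphyrin IX gave 4 of the 9 genes. *GSA2* (AT3G48730), an aminotransferase that forms ALA, had 957, 971, and 1013 in *vtc3-3*, 1188, 1085, and 1163 in *vtc2-4*, and 751, 1063, and 953 in the wild type. *HEMC* (AT5G08280), porphobilinogen deaminase, had 1700.0, 1739, and 1857 in *vtc3-3*, 2061, 2028, and 1930.0 in *vtc2-4*, and 1124, 1895, and 1696 in the wild type. In both, the *vtc3-3* libraries lay below the *vtc2-4* libraries. The log2 fold change was −0.23 for *GSA2* (SE 0.0569, adjusted p = 0.017, edgeR) and −0.19 for *HEMC* (SE 0.0548, adjusted p = 0.043, edgeR). *HEME1* and *HEME2* encode uroporphyrinogen decarboxylases. *HEME1* (AT3G14930) had 884, 889, and 949 in *vtc3-3*, 1152, 1135, and 1165 in *vtc2-4*, and 902, 989, and 952 in the wild type. *HEME2* (AT2G40490) had 999, 1005, and 979.5 in *vtc3-3*, 1245, 1163, and 1208 in *vtc2-4*, and 1427, 1145, and 1015 in the wild type. *HEME1* was lower by 0.35 on the log2 scale in *vtc3-3* than in *vtc2-4* (SE 0.0521, adjusted p = 2.26e-04, edgeR), and *HEME2* was lower by 0.28 (SE 0.0555, adjusted p = 0.0033, edgeR). The adjusted p of *HEME1* with all 9 libraries was 0.46 by edgeR. All 8 genes between ALA and protoporphyrin IX had fitted values below 0 in this comparison, and 3 of these are the called *HEMC*, *HEME1*, and *HEME2*. Of all genes tested, 50.1% had values above 0. Genes measured in the same libraries are not independent replicates.

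In the chlorophyll branch, *CHLM*, *LCAA*, and *CAO* were lower in *vtc3-3* than in *vtc2-4*, beside *PORB*. *CHLM* (AT4G25080), the methyltransferase of magnesium protoporphyrin IX, had 1226, 1290.0, and 1196 in *vtc3-3*, 1487, 1484, and 1487 in *vtc2-4*, and 2003, 1288, and 1178 in the wild type. *LCAA* (AT5G58250), an assembly factor of the cyclase, had 948, 925, and 884 in *vtc3-3*, 1082, 1073, and 1060.0 in *vtc2-4*, and 585, 1033, and 933 in the wild type. *CAO* (AT1G44446), the oxygenase that makes chlorophyll b precursors, had 1002, 1065, and 1035 in *vtc3-3*, 1216, 1211, and 1230.0 in *vtc2-4*, and 799, 1018, and 926 in the wild type. The mutant groups did not overlap for any of these 3 genes, and the log2 fold change was −0.26 for *CHLM* (adjusted p = 0.003, edgeR), −0.22 for *LCAA* (adjusted p = 0.017), and −0.24 for *CAO* (adjusted p = 0.007). The only gene of the 37 that was called higher in *vtc3-3* than in *vtc2-4* was *PAO*, the pheophorbide a oxygenase of chlorophyll breakdown. *PAO* (AT3G44880) had 622, 656, and 639 in *vtc3-3*, 534, 582, and 548 in *vtc2-4*, and 309.5, 726, and 723 in the wild type. Its log2 fold change was 0.20 (SE 0.0586, adjusted p = 0.043, edgeR), close to the threshold. With all 9 libraries and a quality weight for each in limma, 6 of the 9 genes passed, and *HEMC* (adjusted p = 0.11), *LCAA* (0.054), and *PAO* (0.13) did not. The heme and bilin genes, and the 3 regulators, gave 0 calls. Among the shoot markers, 1 of 5 passed the same test, *LHCB2.1*, a light-harvesting protein, at −0.22 (adjusted p = 0.027, edgeR), and its part in the results was not tested.

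**Figure D3:**
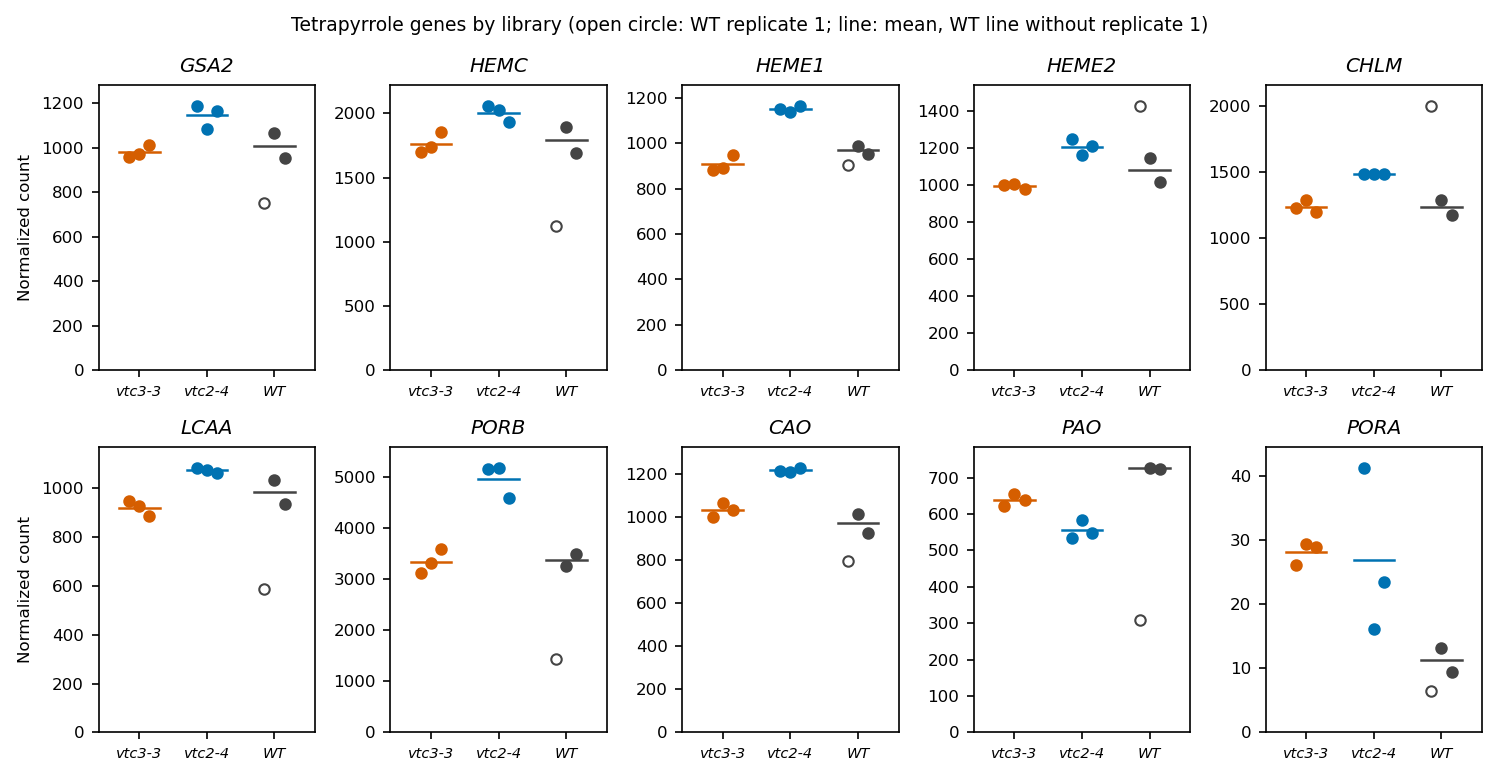
Normalized counts (vertical axes start at 0) of the 9 genes called between the mutants and of *PORA*, with 1 circle for each library of *vtc3-3*, *vtc2-4*, and the wild type, the open circle marking wild-type replicate 1 and the line the mean without that library. *PORB* lies between 4571 and 5168 in *vtc2-4* and between 3112 and 3574 in *vtc3-3*.

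For *vtc2-4* against the wild type, 5 of the 37 genes passed without wild-type replicate 1, 4 higher and 1 lower, and 6.05% of all 17631 genes did (3.03% higher, 3.01% lower). They were *PORB*, *CAO*, *CHLM*, *HEME1*, and *PAO*, which are among the 9 above, and this comparison shares the *vtc2-4* libraries with that one. *PORB* was 1.48-fold higher in *vtc2-4* (log2 0.56, SE 0.0677, adjusted p = 1.53e-05, edgeR). *CAO* was higher by 0.33 (SE 0.0603, adjusted p = 0.0014, edgeR) and *HEME1* by 0.25 (SE 0.0584, adjusted p = 0.013, edgeR). *PAO* fell by 0.38 (SE 0.0647, adjusted p = 6.49e-04, edgeR). For *PORB*, *CAO*, and *HEME1* the *vtc2-4* libraries lay above all 3 wild-type libraries, replicate 1 included.

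None of these 5 passed edgeR's quasi-likelihood test with all 9 libraries, where the adjusted p was 0.32 for *PORB*, 0.25 for *CAO*, 0.42 for *HEME1*, 0.89 for *PAO*, and 0.99 for *CHLM*. *CHLM* was 0.27 higher in *vtc2-4* without it (SE 0.0591, adjusted p = 0.0067, edgeR) and −0.00 with it, and its count in that library was 2003. *PAO* was −0.08 with all 9 libraries, and its count was 309.5 in wild-type replicate 1 against 726 and 723 in the other wild-type libraries. With limma and a quality weight for each library, where wild-type replicate 1 received a weight of 0.0454 and the others 1.29 to 1.75, the same 5 genes passed, beside 5.43% of all genes. With all 9 libraries the groups did not overlap for 10 of the 37 genes higher and 1 of the 37 lower in *vtc2-4*, against 8.43% and 8.14% of all genes. Without wild-type replicate 1 these were 17 of the 37 genes higher and 6 of the 37 lower, against 17.5% and 17.4% of all genes.

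For *vtc3-3* against the wild type, 0 of the 37 genes passed without wild-type replicate 1, against 0.681% of all genes, and 4 had an unadjusted p under 0.05 in edgeR's quasi-likelihood test, against 8.87% of all genes. The fitted log2 fold changes ran between −0.22 (*PPH*, pheophytinase) and 0.19 (*HY2*) apart from *PORA*. They ran between −0.51 (*HY2*) and 0.31 (*CHLD*) with all 9 libraries, so *HY2* was at opposite ends of the range with and without that library. *PORA* (AT5G54190) had 26.0, 29.4, and 29.0 in *vtc3-3*, 41.2, 16.1, and 23.5 in *vtc2-4*, and 6.51, 13.2, and 9.38 in the wild type. These are 21 to 33 reads in a library of *vtc3-3*, 19 to 46 in *vtc2-4*, and 6 to 11 in the wild type, and both mutants lay above the wild type in every library. The log2 fold change of *PORA* was 1.31 in *vtc3-3* (SE 0.405, adjusted p = 0.22, edgeR) and 1.25 in *vtc2-4* (SE 0.399, adjusted p = 0.074, edgeR). Neither passed that test, and edgeR's exact test on the 6 libraries of *vtc3-3* and the wild type called it at an adjusted p of 0.04.

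**Figure D4:**
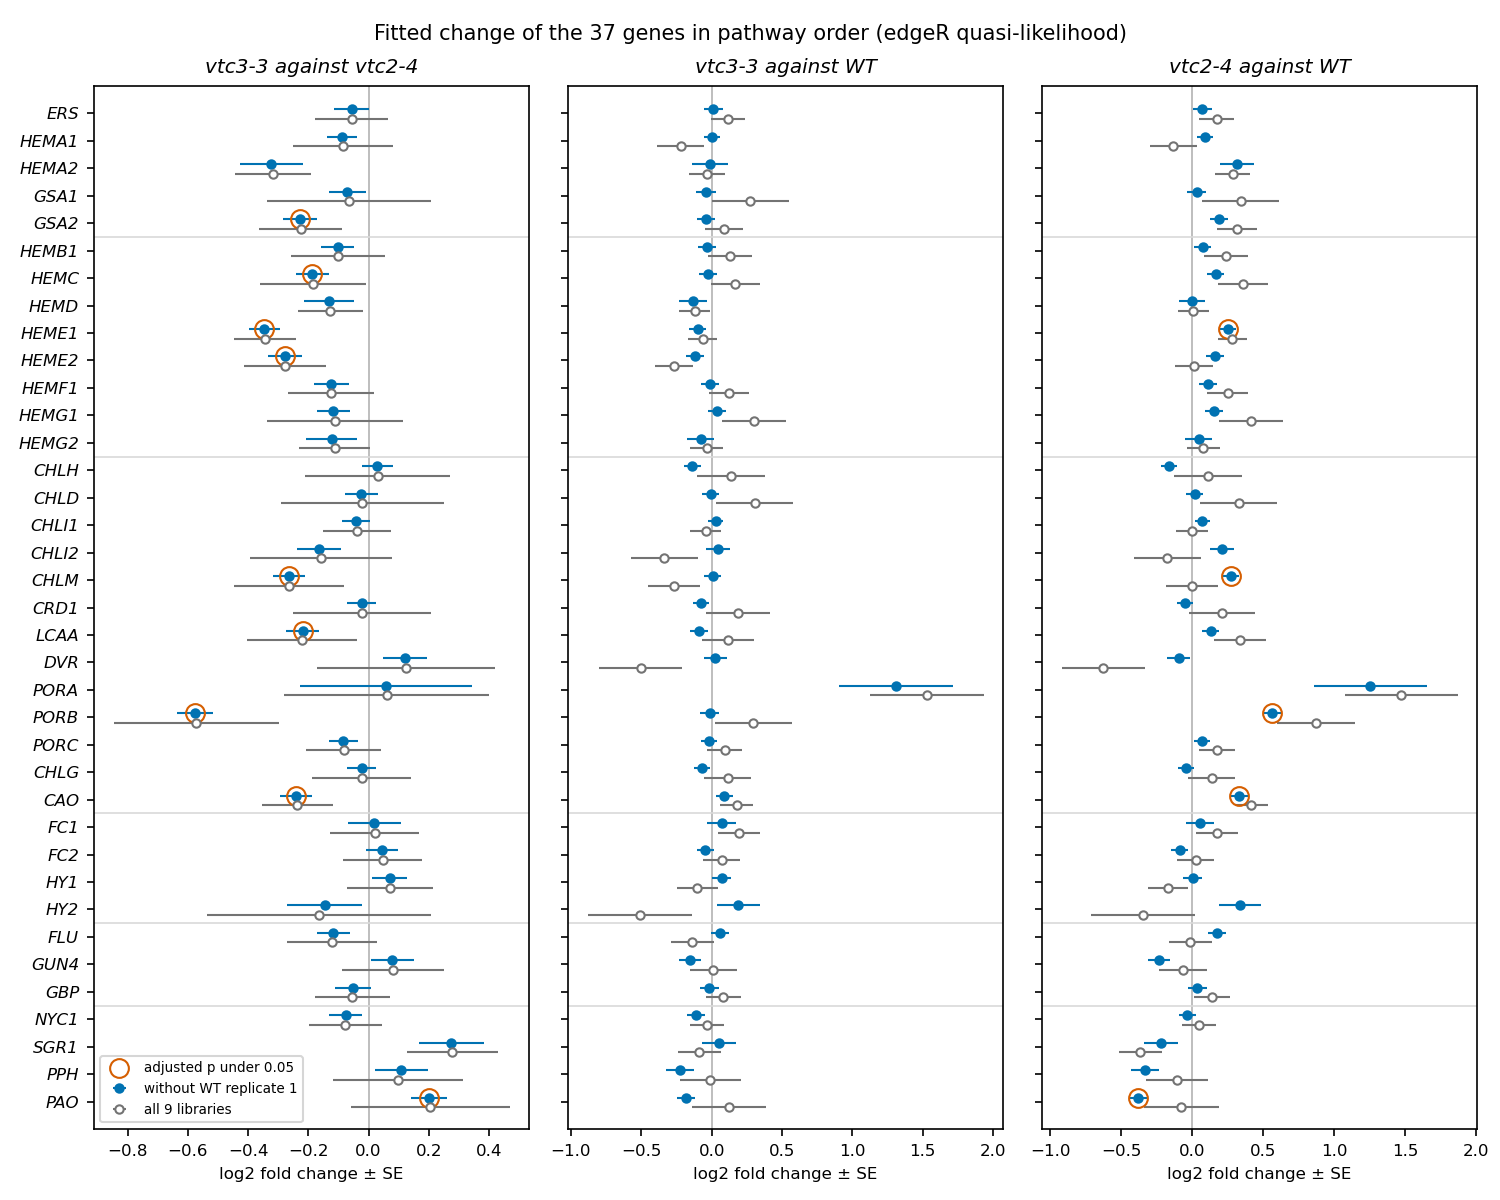
Fitted log2 fold change with its standard error (horizontal axes) of the 37 genes in pathway order (vertical axis) for the 3 comparisons, with filled circles without wild-type replicate 1, open circles with all 9 libraries, and rings at an adjusted p under 0.05. Open and filled circles nearly coincide between the mutants and come apart in both comparisons with the wild type.

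Several genes at control points of the pathway did not pass any of these tests. *HEMA1* and *HEMA2* encode glutamyl-tRNA reductase, the entry to ALA synthesis. *HEMA1* (AT1G58290) had 3045, 3284, and 3241 in *vtc3-3*, 3251, 3384, and 3517 in *vtc2-4*, and 4781, 3167, and 3191 in the wild type. *HEMA2* (AT1G09940) had 114, 113, and 124 in *vtc3-3*, 151, 133, and 154 in *vtc2-4*, and 125, 110.5, and 124 in the wild type. *HEMA2* was lower in every *vtc3-3* library than in any *vtc2-4* library (log2 −0.32, adjusted p = 0.079, edgeR). *FLU* (AT3G14110), which represses ALA synthesis in the dark, had 898, 843, and 809.8 in *vtc3-3*, 948, 896, and 931 in *vtc2-4*, and 1166, 836, and 804 in the wild type. *GBP* (AT3G21200), a binding protein of glutamyl-tRNA reductase, had 664, 606, and 643 in *vtc3-3*, 695, 655, and 635 in *vtc2-4*, and 512, 645, and 647 in the wild type. *GUN4* (AT3G59400), which activates the magnesium chelatase, had 1305, 1485, and 1327 in *vtc3-3*, 1246, 1343, and 1302 in *vtc2-4*, and 1035, 1354, and 1691 in the wild type. For these regulators the mutant groups overlapped each other.

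For several genes between protoporphyrin IX and chlorophyll, wild-type replicate 1 lay outside the range of the other 8 libraries. *CHLH* (AT5G13630), the large subunit of the chelatase, had 9696, 10706, and 10351 in *vtc3-3*, 9745, 10482, and 9893 in *vtc2-4*, and 5397, 11448, and 11082 in the wild type. *CHLI1* (AT4G18480), its ATPase subunit, had 3465, 3595, and 3566 in *vtc3-3*, 3710.0, 3517, and 3696 in *vtc2-4*, and 4006, 3508, and 3436 in the wild type. *CHLI2* (AT5G45930), the lower-expressed copy, had 479, 473, and 549 in *vtc3-3*, 597, 520.3, and 556 in *vtc2-4*, and 925, 516, and 450.3 in the wild type. The *CHLH* count of wild-type replicate 1 was below that of all other libraries, and its *CHLI1* and *CHLI2* counts were above them. *CRD1* (AT3G56940) had 10897, 11371, and 11151 in *vtc3-3*, 11199, 11776, and 10960.0 in *vtc2-4*, and 5892, 12005, and 11467 in the wild type. *DVR* (AT5G18660), the divinyl reductase, had 607, 658, and 618 in *vtc3-3*, 648, 541, and 539 in *vtc2-4*, and 1439, 585, and 645 in the wild type. *PORC* (AT1G03630), the POR of light-grown leaves, had 1841, 1880.0, and 1854 in *vtc3-3*, 2046, 1908, and 1951 in *vtc2-4*, and 1470.0, 1862, and 1899 in the wild type. *CRD1* was lowest and *DVR* highest in wild-type replicate 1, and *PORC* was slightly higher in each *vtc2-4* library than in any other.

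On the heme side, *FC1* and *FC2* encode ferrochelatases. *FC1* (AT5G26030) had 268, 296, and 266 in *vtc3-3*, 308, 253, and 257 in *vtc2-4*, and 199.8, 254, and 271 in the wild type. *FC2* (AT2G30390) had 1247, 1358, and 1279 in *vtc3-3*, 1305, 1238, and 1215 in *vtc2-4*, and 1028, 1380.0, and 1289 in the wild type. The genotypes overlapped for both. *HY2* (AT3G09150) had 161, 104, and 137 in *vtc3-3*, 158, 144, and 149.7 in *vtc2-4*, and 336, 114, and 124 in the wild type, with wild-type replicate 1 far above all other libraries. In chlorophyll breakdown, *NYC1* (AT4G13250), a chlorophyll b reductase, had 1528, 1537, and 1473 in *vtc3-3*, 1683, 1614, and 1489 in *vtc2-4*, and 1362, 1698, and 1579 in the wild type. *SGR1* (AT4G22920), the magnesium dechelatase, had 139, 162, and 134 in *vtc3-3*, 112, 126, and 120.1 in *vtc2-4*, and 182, 146, and 133 in the wild type. *SGR1* was lower in *vtc2-4* than in every library of the other genotypes, with an adjusted p of 0.37 by edgeR against the wild type and 0.16 between the mutants. *PPH* (AT5G13800) had 419.8, 417, and 326 in *vtc3-3*, 342, 388, and 359 in *vtc2-4*, and 255, 492, and 425 in the wild type. *GSA1* (AT5G63570), the other ALA aminotransferase, had 789, 922, and 822 in *vtc3-3*, 854, 903, and 893 in *vtc2-4*, and 362, 878, and 857 in the wild type, and *HEMG1* (AT4G01690), a protoporphyrinogen oxidase, had 904, 948, and 1006 in *vtc3-3*, 1068, 1002, and 1016 in *vtc2-4*, and 465, 909, and 943 in the wild type. Wild-type replicate 1 was lowest for *PPH*, *GSA1*, and *HEMG1*. The remaining 8 genes of the 37 are *ERS* (glutamyl-tRNA synthetase), *HEMB1* (ALA dehydratase), *HEMD* (uroporphyrinogen III synthase), *HEMF1* (coproporphyrinogen oxidase), *HEMG2* (protoporphyrinogen oxidase), *CHLD* (a chelatase subunit), *CHLG* (chlorophyll synthase), and *HY1* (heme oxygenase). None was called by edgeR's quasi-likelihood test. Without wild-type replicate 1 their log2 fold changes ran between −0.13 (*HEMD*) and 0.07 (*HY1*) between the mutants, between −0.13 (*HEMD*) and 0.07 (*HY1*) for *vtc3-3* against the wild type, and between −0.05 (*CHLG*) and 0.11 (*HEMF1*) for *vtc2-4* against the wild type. The 9-library fit gave values between −0.12 (*HEMD*) and 0.31 (*CHLD*) for *vtc3-3* against the wild type and between −0.17 (*HY1*) and 0.33 (*CHLD*) for *vtc2-4* against the wild type.

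The ratio of paralogs within a library is free of library scaling. The log2 ratio of *PORB* to *PORC* was 0.58, 0.65, and 0.78 in *vtc3-3*, 1.16, 1.27, and 1.06 in *vtc2-4*, and −0.21, 0.64, and 0.71 in the wild type. It was higher in every *vtc2-4* library than in any other library. The difference of *vtc3-3* minus *vtc2-4* was −0.49, with a two-sided exact permutation p of 0.1, the smallest that 3 against 3 libraries can give. With all 9 libraries, the groups did not overlap for 3 of the 8 pairs between the mutants. These were *HEMA1* to *HEMA2*, *PORB* to *PORA*, and *PORB* to *PORC*, and those with *PORB* are not independent. The groups did not overlap for 2 pairs for *vtc3-3* against the wild type and 1 for *vtc2-4* against the wild type. Ratios of gene pairs outside these 8 were not examined, so no general share stands beside these counts. Over the 8 pairs and 3 comparisons (24 tests) the smallest adjusted p was 0.4.

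**Figure D5:**
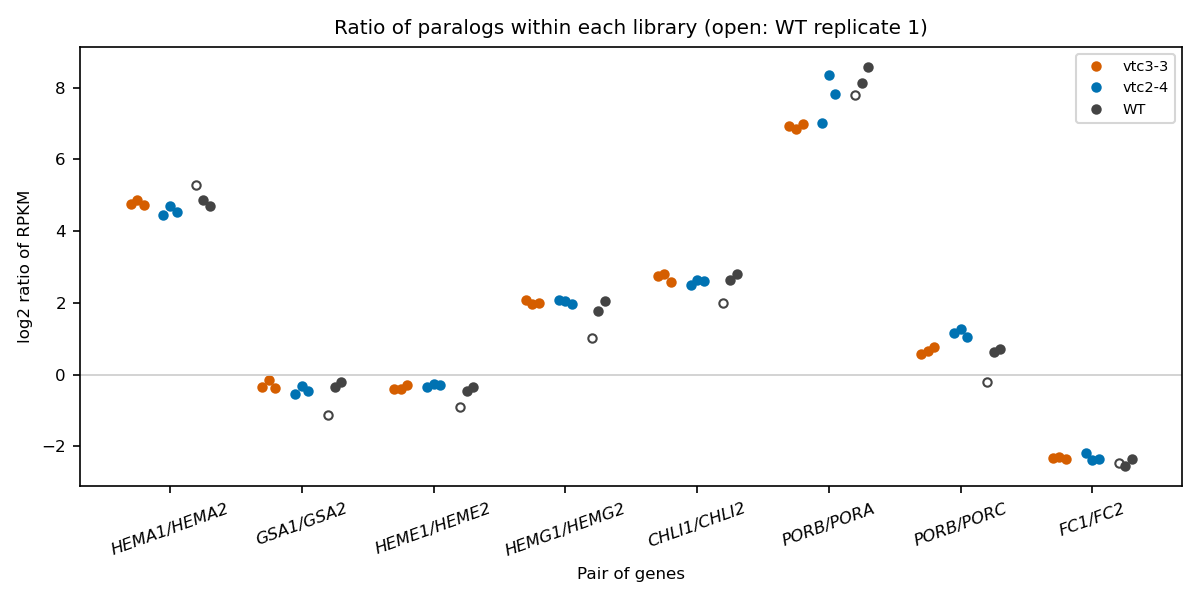
Log2 ratio of RPKM (vertical axis) of the first to the second gene of 8 pairs (horizontal axis), with 1 circle for each library of *vtc3-3*, *vtc2-4*, and the wild type and an open circle for wild-type replicate 1. For *PORB* to *PORC* the *vtc2-4* libraries lie at 1.06 to 1.27, above all others.

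A further 27 genes of the same metabolism, 19 pathway genes and 8 regulators, were examined, and 24 could be tested. With all 9 libraries 0 passed in any comparison by edgeR's quasi-likelihood test. Without wild-type replicate 1, 4 passed between the mutants (6.76% of all genes did), 2 for *vtc3-3* against the wild type (0.681%), and 2 for *vtc2-4* against the wild type (6.05%). *UPM1* (AT5G40850), which methylates uroporphyrinogen III toward siroheme, had 1012, 1105, and 995 in *vtc3-3*, 1201, 1203, and 1046 in *vtc2-4*, and 615, 806, and 827 in the wild type. Against the wild type its log2 fold change was 0.35 in *vtc3-3* (adjusted p = 0.031, edgeR) and 0.50 in *vtc2-4* (adjusted p = 1.34e-04, edgeR). *CYP89A9* (AT3G03470), an oxidase of chlorophyll catabolites, had 354, 374, and 323 in *vtc3-3*, 259, 324, and 229 in *vtc2-4*, and 218, 545, and 449 in the wild type. It fell by 0.50 in *vtc3-3* (adjusted p = 0.047, edgeR) and by 0.87 in *vtc2-4* (adjusted p = 4.17e-05, edgeR), and its count in wild-type replicate 1 was below those of both mutants. Between the mutants, *CYP89A9*, *CLH2*, and *SGR2* were higher and *LIL3.2* was lower in *vtc3-3*. *GLK1* and *GLK2*, transcription factors that activate chlorophyll synthesis genes, did not pass in any comparison.

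Some of the called genes lie near the disrupted loci. *PORB* is 223.9 kb and *CHLM* 620.4 kb from *VTC2* on chromosome 4, and *HEME2* is 138.4 kb from *VTC3* on chromosome 2. Without wild-type replicate 1, within 1 Mb of *VTC2*, 6.22% of 402 genes tested passed between the mutants and 6.97% for *vtc2-4* against the wild type. Within 1 Mb of *VTC3*, 7% of 414 passed between the mutants and 0.242% for *vtc3-3* against the wild type. Of all genes, 6.76% passed between the mutants, 6.05% for *vtc2-4* against the wild type, and 0.681% for *vtc3-3* against the wild type. *HEMC* overlaps AT5G08270 by 129 bases and *PAO* overlaps AT3G44870 by 11 bases, and reads on shared bases cannot be assigned, since the TruSeq RNA kit used for the libraries does not mark strand. AT3G44870 had 0 reads, and AT5G08270 had 509 against 16129 of *HEMC* over all libraries.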

How the data were processed

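The authors sequenced the libraries on a MiSeq, and mapping and counting were done in CLC Genomics Workbench. The genome build is not given in the sources used here. The deposited counts are raw reads per gene, and the deposited RPKM values scale exon reads by exon length and total reads. Comparison columns of the deposited table hold the authors' own tests and were not used, nor were 112 other per-library columns.

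Counts were fitted with edgeR 4.0.16 under R 4.3.3 (TMM, filterByExpr, quasi-likelihood test, genotype as the only term, all 9 libraries), with p-values adjusted by the Benjamini–Hochberg method over all genes tested and a threshold of 0.05. Alternatives were DESeq2 1.42.0, edgeR's exact test, limma 3.58.1, other normalizations, filters, and read classes, and each library left out in turn. The quasi-likelihood fit was tried on simulated counts with a coefficient of variation of 0.052 between libraries and no library that stands apart. That trial says nothing of how the fit behaves when wild-type replicate 1 is included. Samples were grouped by the genotype in their labels. P-values of edgeR, DESeq2, and limma set a difference against the spread between libraries within genotypes. That spread is estimated from all genotypes in a fit together. With all 9 libraries fitted it includes wild-type replicate 1, also for the comparison between the mutants. The rule for named genes took those called with all 9 libraries or without wild-type replicate 1, 20 listed genes, and the 2 largest rises and falls of each comparison, 28 genes in all. Of these, *CHLD* is given by its range, and *GSA1*, *HEMG1*, *UPM1*, and *CYP89A9* were added after their values were seen. The genes and lists were chosen with earlier results of these data known. All 37 genes matched a RefSeq gene of TAIR10.1 by identifier, and gene positions are those of the deposited table. RefSeq and deposited boundaries were both equal for 4 of them.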

Additional observations from a re-analysis of the deposited data

How the results depend on the processing

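Wild-type replicate 1 was the choice that moved the results most. Genes called among the 37 ranged over the libraries left out in turn between 0 and 9 for *vtc3-3* against *vtc2-4*, 0 and 0 for *vtc3-3* against the wild type, and 0 and 5 for *vtc2-4* against the wild type, and the upper ends came only without that library. With all 9 libraries the count was 0 in each. For *vtc3-3* against *vtc2-4* it was 1 with DESeq2, 9 with the exact test, 9 with only these genotypes fitted, and 6 with library quality weights in limma. For *vtc3-3* against the wild type it was 1 with the exact test. For *vtc2-4* against the wild type it was 1 with DESeq2 and 5 with quality weights. For the 27 other pathway genes the counts left out in turn ranged between 0 and 4 for *vtc3-3* against *vtc2-4*, 0 and 2 for *vtc3-3* against the wild type, and 0 and 2 for *vtc2-4* against the wild type. Between the mutants the other-pathway count was 4 with the exact test, 3 with only these genotypes fitted, and 4 with quality weights, and for *vtc3-3* against the wild type it was 1 with quality weights. For *vtc2-4* against the wild type it was 1 with DESeq2, 1 with the exon-length trend removed, 1 with the replicate block and that trend removed, and 2 with quality weights. The log2 fold change of *CHLM* for *vtc2-4* against the wild type was −0.00 with all 9 libraries, 0.25 with quality weights, and ranged between −0.15 and 0.27 over the libraries left out in turn, with 0.27 without wild-type replicate 1. The common coefficient of variation between libraries in the edgeR fit was 0.186 with all 9 libraries and 0.0521 without wild-type replicate 1. With any other single library left out it was 0.174 to 0.204. The cause of the shifts in calls and fold changes was not tested.

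With the replicate number as a block, 0 of the 37 genes were called in each comparison. Over all genes, deviations of libraries with the same number correlated at −0.025 to 0.09, so the numbers were not taken to pair the samples. With the few reads of *PORA*, 6 to 46 in a library, depth limits what can be shown for it.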
